A study of Homo sapiens with 3 samples.

Results

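The 9 human PAX genes, PAX1 to PAX9, were examined for sites occupied by Idax in HEK293T chromatin. A peak belonged to a gene when any base of it lay within 10 kb of that gene's transcription start site, which was fixed as a single hg19 position per gene. By this rule 7 of the 17089 peaks of wild-type Idax belonged to a PAX gene, and none of the 38 peaks of the DNA-binding mutant did. The genes with a wild-type peak were PAX1, PAX2, PAX3, PAX5, PAX6 and PAX9, with 2 peaks at PAX6 and 1 at each of the others. PAX4, PAX7 and PAX8 had none.

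The peaks come from chromatin immunoprecipitation and sequencing of stable lines made from HEK293T, which descends from cultured human embryonic kidney cells and expresses the SV40 large T antigen. One line was transfected with wild-type Myc-Idax, one with a DNA-binding mutant of it (Myc-IdaxDBM) and one with an empty vector. The Myc tag was precipitated with an anti-c-Myc agarose gel in each. Idax, encoded by CXXC4, carries a CXXC zinc finger, a domain known to bind DNA with unmethylated CpG, the cytosine-guanine step that DNA methyltransferases modify. Each tagged line was set against the empty-vector line, and 1 peak list per condition was analysed although the design names 2 replicates. The promoter that drives the constructs, and whether each line is 1 clone, are not given in the sources used here.

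PAX proteins are transcription factors that bind DNA through the paired domain, and several carry a whole or partial homeodomain as well. They pattern organs in the embryo, and many PAX genes are silent in most adult tissues. The family falls into 4 subgroups of close relatives, PAX1 with PAX9, PAX2 with PAX5 and PAX8, PAX3 with PAX7, and PAX4 with PAX6. PAX2 and PAX8 act in the formation of the kidney, the organ from which the cell line is named. A peak list measures no RNA, so neither the expression of these genes nor the kidney identity of the line was checked.

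Since the CXXC finger reads CpG, the promoters are shown first for PAX2 and PAX8, for PAX6, the gene with the most peaks, and for PAX4 and PAX7, which like PAX8 had none. Each sequence is the RefSeq promoter on GRCh38.p14, from 250 bases before to 50 bases after a listed start, written 5′ to 3′ on the gene's strand with every CpG in capitals. PAX2 has 2 listed starts, both shown, at chr10:100735146-100735445 and chr10:100745332-100745631 on the plus strand. PAX8 lies at chr2:113278872-113279171 on the minus strand, PAX6 (the first of 9 listed starts) at chr11:31817912-31818211 on the minus strand, PAX4 (the first of 2) at chr7:127618093-127618392 on the minus strand and PAX7 at chr1:18630596-18630895 on the plus strand.
PAX2, first listed start: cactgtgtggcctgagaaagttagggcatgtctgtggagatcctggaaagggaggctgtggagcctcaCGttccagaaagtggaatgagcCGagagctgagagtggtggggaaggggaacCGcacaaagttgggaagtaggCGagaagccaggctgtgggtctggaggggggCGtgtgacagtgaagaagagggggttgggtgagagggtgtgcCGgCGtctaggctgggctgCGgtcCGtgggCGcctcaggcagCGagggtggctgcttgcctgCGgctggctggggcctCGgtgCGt
PAX2, second listed start: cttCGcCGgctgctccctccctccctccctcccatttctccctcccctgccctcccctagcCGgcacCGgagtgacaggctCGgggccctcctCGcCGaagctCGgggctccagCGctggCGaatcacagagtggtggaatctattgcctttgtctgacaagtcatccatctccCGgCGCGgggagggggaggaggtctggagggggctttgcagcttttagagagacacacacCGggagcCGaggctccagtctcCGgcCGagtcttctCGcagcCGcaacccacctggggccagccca
PAX8: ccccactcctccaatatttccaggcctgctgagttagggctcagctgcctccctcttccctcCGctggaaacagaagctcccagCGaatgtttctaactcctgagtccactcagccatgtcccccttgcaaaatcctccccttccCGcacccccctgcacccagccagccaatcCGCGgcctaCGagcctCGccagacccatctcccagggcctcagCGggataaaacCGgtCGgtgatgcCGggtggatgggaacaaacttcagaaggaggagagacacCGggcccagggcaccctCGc
PAX6: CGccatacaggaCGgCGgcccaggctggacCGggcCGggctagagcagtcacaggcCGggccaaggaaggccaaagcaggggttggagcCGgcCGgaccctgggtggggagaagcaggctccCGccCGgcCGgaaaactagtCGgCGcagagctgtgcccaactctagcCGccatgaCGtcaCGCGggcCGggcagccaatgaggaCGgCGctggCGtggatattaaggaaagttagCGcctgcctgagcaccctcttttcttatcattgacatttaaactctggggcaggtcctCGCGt
PAX4: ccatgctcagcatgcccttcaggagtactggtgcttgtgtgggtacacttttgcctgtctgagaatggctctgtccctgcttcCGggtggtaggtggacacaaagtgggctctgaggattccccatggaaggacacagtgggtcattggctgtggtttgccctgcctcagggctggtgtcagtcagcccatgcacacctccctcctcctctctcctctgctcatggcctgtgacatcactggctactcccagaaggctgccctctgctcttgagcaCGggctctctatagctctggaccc
PAX7: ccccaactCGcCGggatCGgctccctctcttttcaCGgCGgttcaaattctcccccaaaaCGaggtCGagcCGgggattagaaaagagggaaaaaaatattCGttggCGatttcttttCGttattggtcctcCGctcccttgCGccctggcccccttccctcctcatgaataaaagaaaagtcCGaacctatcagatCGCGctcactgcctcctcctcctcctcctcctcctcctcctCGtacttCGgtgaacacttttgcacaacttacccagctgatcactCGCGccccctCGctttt

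The PAX6 promoter holds 24 CpG, PAX7 holds 21, the PAX2 promoters hold 14 and 19, PAX8 holds 13 and PAX4 holds 2. The median over the 35116 promoters of the table is 14 CpG (quartiles 4 and 28). These sequences are from another build than the peaks, so no peak was placed on them.

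Each peak has a score, the peak caller's own deposited value, which depends on read depth and whose scale the lists do not state. Peaks are called strong or weak below by this score alone, which was not read as a fold of enrichment. Wild-type scores ran from 50.01 to 3100, with a median of 223 (quartiles 109.3 and 407.8) and a median peak width of 1116 bp (quartiles 826 and 1503). Mutant scores ran from 50.43 to 94.45. Depth is unknown, there is no replicate error, and genes are not replicates of a condition, so the values below are descriptions without a test. Positions are on hg19. Exons and introns are not named, since no hg19 annotation was used here, and the abnormal copy number of HEK293T was not taken into account.

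Wild-type Idax had a peak within 10 kb of 6 of the 9 start sites. Cut into fixed windows of 20 kb, the length of the region around a start site, the genome had at least 1 wild-type peak in 9.65% of 154528 windows. Most such windows hold no gene start, and some hold unassembled sequence, so this is a background for any place in the genome and not for promoters. PAX6 was the single member with 2 peaks, and at least 2 peaks were present in 1.67% of the windows. Among the 7 PAX peaks, 3 covered the start site itself, at PAX1, PAX2 and PAX3. The other 4, at PAX5, PAX6 and PAX9, lay wholly downstream, in the direction of transcription, and none lay wholly upstream. How often peaks cover a start, or lie on either side of it, was not computed over all genes. No preference is therefore read from these counts. Of the 7 PAX peaks, 4 scored 100 or more, as did 13319 (77.9%) of the whole list. These 4 lay at 3 of the 9 genes, and 8.07% of the 20 kb windows held a peak of that score.

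**Figure D1:**
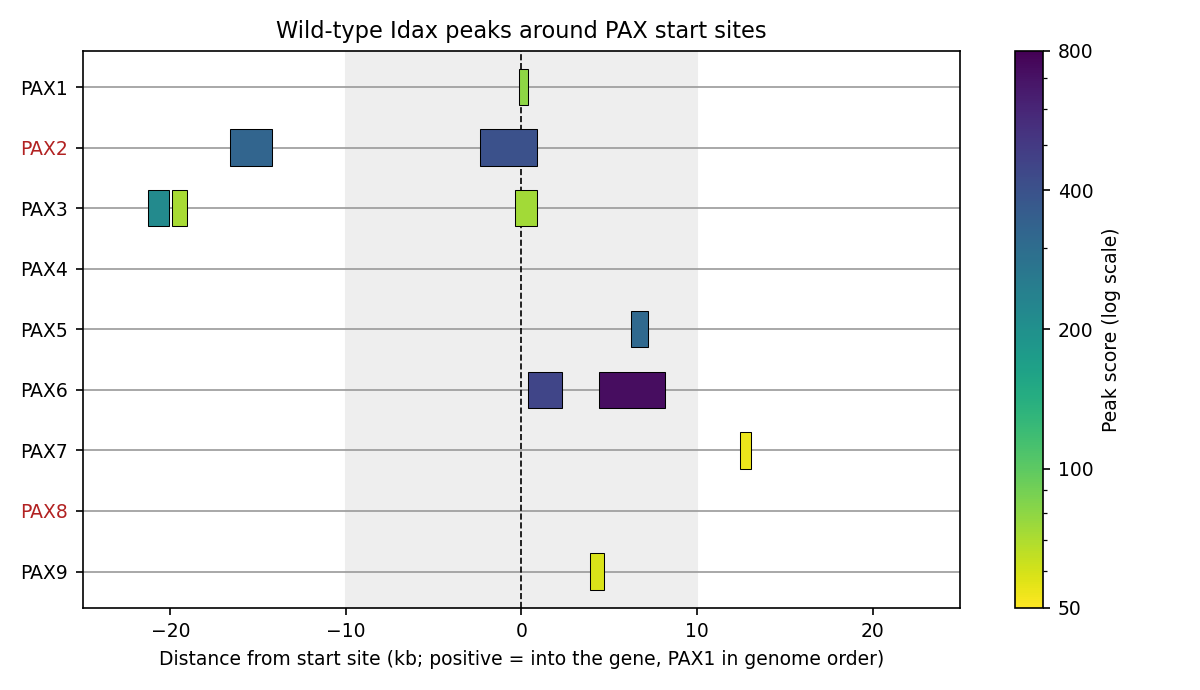
Wild-type Idax peaks (boxes, to scale) within 25 kb of each PAX start site (dashed line), with distance in kb along the gene, or in genome order for PAX1, and the peak score as colour on a log scale. The grey band marks 10 kb either side. Within the band, the boxes of PAX1, PAX2 and PAX3 cross the line and those of PAX5, PAX6 and PAX9 lie to its right. Outside it lie 1 further box of PAX2 and 2 of PAX3 on the left and the box of PAX7 on the right, and PAX4 and PAX8 (PAX2 and PAX8 are named in red) have no box within 25 kb.

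PAX2, PAX5 and PAX8 form the subgroup that includes both kidney genes, and its 3 members differed. PAX2, which is needed for the ureteric bud and the nephron, had a broad peak on chromosome 10 at 102503119 to 102506355. It was 3237 bp wide and reached from 2349 bp upstream of the start site (102505468) to 887 bp downstream. Its score was 404, rank 4329 of the list, so that 74.7% of wild-type peaks scored lower, whereas 99% were narrower. Among the 164 list peaks within 10% of its width the median score was 768, and 10.4% of them scored lower than PAX2. The PAX2 peak was thus among the widest of the list but weak for its width.

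Outside the 10 kb limit, PAX2 had a second broad peak upstream, on chromosome 10 at 102488841 to 102491281. This peak was 2441 bp wide, scored 325.79 and began 14187 bp from the start site. A narrower peak at 102469681 to 102470467 scored 122.5 and lay 35001 bp upstream. Downstream of PAX2 the next peak was 166 kb away, at 102671954 to 102673510, with a score of 496.75. Near PAX2, wild-type peaks were thus on the start site and on its upstream side, with a long stretch free of peaks in the direction of transcription.

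PAX8, a regulator of kidney and thyroid development, had no wild-type peak within 10 kb of its start site on chromosome 2 at 114036498. The nearest lay 45728 bp upstream, at 114082226 to 114083153, and scored 98.82 over 928 bp. On the downstream side the nearest was 79158 bp away, at 113956069 to 113957340, and scored 424.49 over 1272 bp. PAX8 had the longest distance to a wild-type peak among the 9 genes.

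PAX5, the factor that commits cells to the B lineage, had 1 peak on chromosome 9 at 37027292 to 37028248. It lay 6228 to 7184 bp downstream of the start site (37034476), was 957 bp wide and scored 312, above 63.7% of the list. Among 2860 list peaks of like width the median score was 177, and 81% scored lower. In contrast to PAX2, the PAX5 start itself was free of peaks, and the peak was strong for its width. Beyond 10 kb, the next peaks were 44668 bp upstream (score 425.12) and 47618 bp downstream (score 139.57).

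PAX6, a regulator of eye, brain and pancreatic islet development, had the 2 strongest PAX peaks, and the wider of them was also the widest. The first lay on chromosome 11 at 31837178 to 31839115, from 394 to 2331 bp downstream of the start site (31839509). It was 1938 bp wide and scored 455, above 79.3% of the list. The second, at 31831321 to 31835078, lay 4431 to 8188 bp downstream, was 3758 bp wide and scored 728, rank 1180. Of all wild-type peaks, 93.1% scored lower than this one and 99.5% were narrower.

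The 2 PAX6 peaks were 2099 bp apart and together covered 5696 bp, or 28.5% of the 20 kb around the start. Among genome windows with a wild-type peak the median covered length was 1228 bp (quartiles 855 and 1739), and 99.6% had less than PAX6. For their widths the scores were ordinary, since 48.4% of the peaks of like width scored lower than the first and 31.7% lower than the second. Both were far from any other peak. The next wild-type peaks were 272 kb upstream (score 366.95) and 308 kb downstream (score 196.26).

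PAX4, the relative of PAX6 that acts in insulin-producing cells of the pancreas, had no wild-type peak within 10 kb of its start site on chromosome 7 at 127255780. Its nearest peaks were 26484 bp downstream, at 127227991 to 127229296 (score 200.95), and 35584 bp upstream, at 127291364 to 127292676 (score 359.38). Within 10 kb, PAX6 thus had the most Idax peaks of the family and its relative PAX4 none. Within 50 kb the order of the 2 genes was the reverse, with 3 peaks at PAX4 and 2 at PAX6.

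PAX3, known for its role in neural crest and muscle precursors, had a peak across its start site on chromosome 2, at 223162842 to 223164107. The peak reached from 392 bp upstream to 873 bp downstream of position 223163715 and was 1266 bp wide. Its score of 73.5 was higher than that of 12.6% of the list, and among 2913 peaks of like width, with a median of 281, 1.24% scored lower. Upstream of PAX3, beyond the 10 kb limit, lay a close pair of peaks at 223182791 to 223183626 (score 71.88) and 223183773 to 223185014 (score 215.52), 19076 and 20058 bp away. The stronger of these scored higher than the peak on the start itself. Downstream the next peak was 725 kb away.

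PAX7, the relative of PAX3 that marks muscle stem cells, had no peak within 10 kb of its start site on chromosome 1 at 18957500. A weak peak at 18969926 to 18970574, 12426 bp downstream, was the nearest to lie outside the limit among all 9 genes. It was 649 bp wide and scored 54.3, higher than 2.9% of the list. On the upstream side the next peak was 520 kb away and scored 51.06. PAX3 and PAX7 thus differed in whether the start was covered, and the peaks nearest to both starts had low scores.

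PAX1 and PAX9, which act in the vertebral column, the pharyngeal pouches and, for PAX9, the teeth, each had 1 weak peak. The PAX1 peak lay on chromosome 20 at 21686127 to 21686646 and covered the start site (21686297). It was 520 bp wide, with 1.44% of the list narrower, and its score was 79.7, with 15.2% of the list lower. For a peak of this width the score was high, as 77.3% of 472 peaks of like width scored lower.

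The PAX9 peak, on chromosome 14 at 37130676 to 37131504, missed the start site (37126782) and lay 3894 to 4722 bp downstream. It was 829 bp wide and scored 58.6, the lowest of the 7 PAX peaks, with 5.34% of the list lower. Among 2475 peaks of like width 5.21% scored lower. Around both genes the nearest other wild-type peaks were far, at 182 kb and 1343 kb for PAX1 and at 74.9 kb and 298 kb for PAX9.

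**Figure D2:**
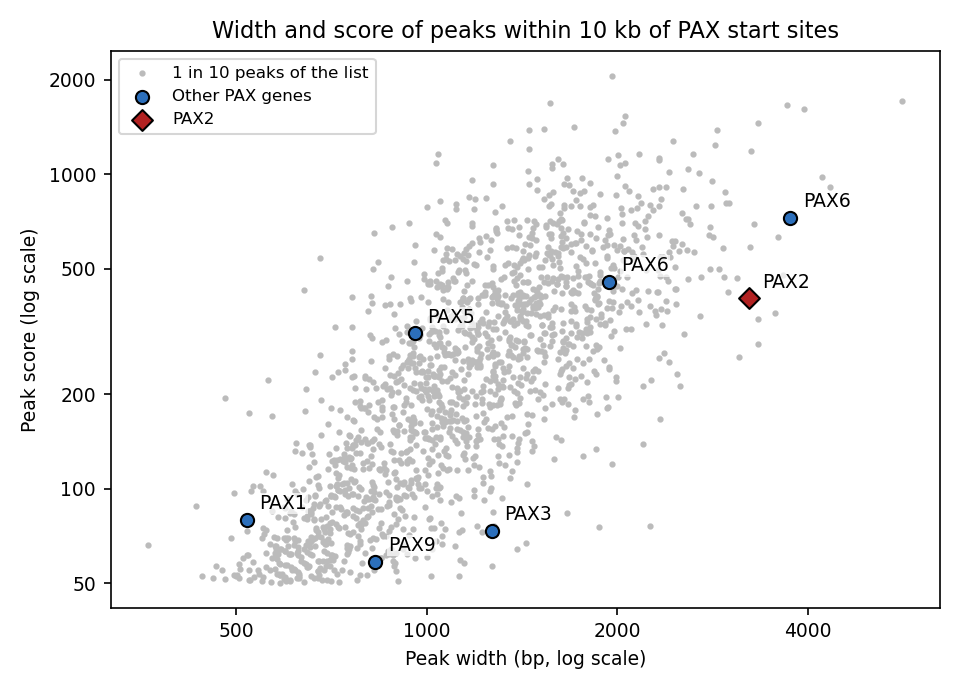
Width in bp and score of the 7 wild-type peaks within 10 kb of a PAX start site, over 1 in 10 peaks of the list (grey), both axes logarithmic. PAX6 (widths 1938 and 3758 bp) and PAX2 (3237 bp, red diamond) lie among wide peaks, and PAX3, at 1266 bp and a score of 73.5, lies near the lower edge of the peaks of its width.

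Over the 7 PAX peaks the median score was 312 and the median width 1266 bp, against 223 and 1116 bp in the whole list. Their scores reached toward both ends of the list, with 3 below the lower quartile of scores (PAX1, PAX3 and PAX9) and 2 above the upper quartile (both at PAX6). Against peaks of like width, 2 of the 7 scored above the upper quartile (PAX1 and PAX5) and 3 below the lower quartile (PAX2, PAX3 and PAX9). Over the 6 genes with a peak the median of the highest score was 196, and over the genome windows with a peak it was 265.

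The kidney genes PAX2 and PAX8 were then set beside the other 7. PAX2 had 1 peak and PAX8 none, while the others had from 0 to 2 with a median of 1. Of the others, 5 had at least 1 peak. The median covered length was 1618.5 bp for the kidney pair, which is the midpoint of 3237 bp at PAX2 and 0 bp at PAX8, and 829 bp for the others (0 to 5696 bp). The highest score was 404 at PAX2 and had a median of 79.7 over the 5 other genes with a peak (58.6 to 728). PAX6 alone exceeded PAX2 in each of these 3 measures.

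The kidney genes were unlike each other by these measures. Within 10 kb, PAX2 was exceeded in covered length and highest score by PAX6 alone, and PAX8 was 1 of the 3 genes without a peak. The signs of 2 of these 3 differences rested on weak peaks. The pair had a median of 0.5 fewer peaks per gene than the others (a difference of -0.5), but with peaks of score 100 or more the difference was 0.5. For the highest score the difference of 324 in favour of PAX2 became -116, since the weak peaks of PAX1, PAX3 and PAX9 dropped out and PAX5 and PAX6 remained. The difference in covered length kept its sign and grew from 789.5 to 1618.5 bp. The order of PAX2 and PAX6 in covered length depended on the window. Within 5 kb PAX2 had 3237 bp and PAX6 had 2508 bp, and within 25 kb they had 5678 and 5696 bp.

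Wider distances were then searched. Within 25 kb there were 11 wild-type peaks at 7 genes, and PAX4 and PAX8 still had none. Genome windows of 50 kb, the length of this region, held at least 1 in 19.6% of cases. At 50 kb each of the 9 genes had at least 1, 18 in all, from 1 at PAX1, PAX7, PAX8 and PAX9 to 3 at PAX2, PAX3, PAX4 and PAX5. At least 1 peak was present in 31% of genome windows of 100 kb, and in 44.8% of those of 200 kb, the lengths of the regions searched at 50 and 100 kb. Within 100 kb PAX2 had 6, PAX5 had 4, PAX3, PAX4 and PAX8 had 3 each, PAX6 and PAX9 had 2 each, and PAX1 and PAX7 had 1 each.

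Within 500 kb PAX2 had 32 wild-type peaks, while the other 8 genes had between 4 (PAX7) and 8 (PAX4 and PAX5), with a median of 6. The 32 lay on both sides, 16 upstream and 15 downstream besides the peak on the start. Their median score was 215, near the median of the whole list, and 6 of them scored higher than the peak at PAX2, up to 1029. Across 3105 windows of 1 Mb, the length of this region, the median was 3 peaks (quartiles 1 and 8), and 45 windows (1.45%) held 32 or more. PAX8, the other kidney gene, had 7 peaks in the same span. Peaks at these distances were not assigned to a gene, and in gene order PAX2 stands between HIF1AN and SLF2 among protein-coding genes.

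**Figure D3:**
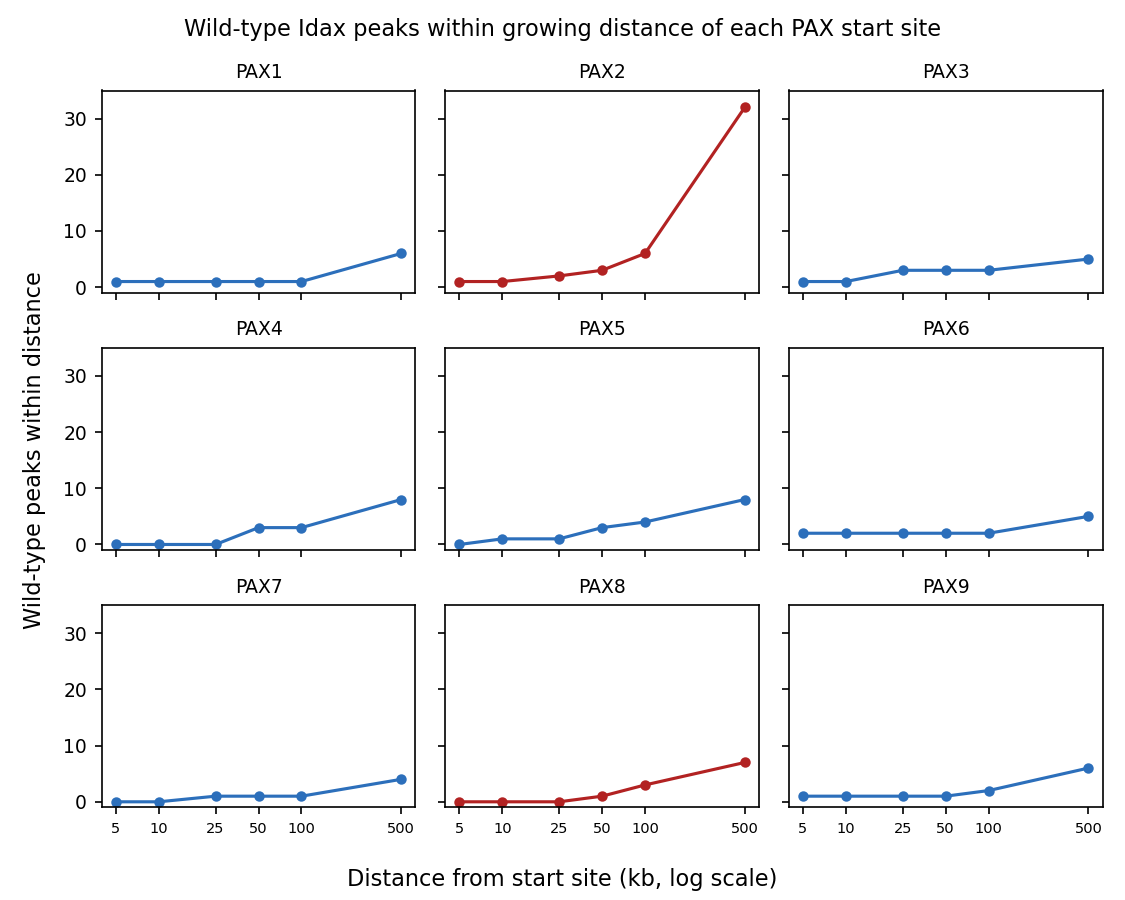
Number of wild-type peaks within 5, 10, 25, 50, 100 and 500 kb of each PAX start site, with distance on a log scale and the same count axis in each panel. The counts of PAX2 reach 32 at 500 kb and those of the other 8 genes, including the other kidney gene PAX8 (both red), reach 4 to 8.

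CpG content was then compared between promoters as the ratio of observed to expected CpG, that is the number of CpG times the length, divided by the product of the numbers of C and G. The RefSeq table matched 8 of the 9 genes with 19 promoters, since some genes have several listed starts, and the unmatched gene was PAX1. The median ratio was 0.57 over the 19 PAX promoters and 0.58 over all promoters (quartiles 0.23 and 0.86). Of the 19 PAX promoters, 8 lay above the median of the table and 4 above its upper quartile. These summaries do not weigh the genes equally, since 9 of the 19 are listed starts of PAX6. At the first listed start the ratios were PAX2 0.56, PAX3 0.67, PAX4 0.08, PAX5 0.95, PAX6 0.77, PAX7 1.07, PAX8 0.48 and PAX9 0.99. Which listed start is the fixed hg19 start site was not checked. For genes with several listed starts, the ratio may thus belong to another start than the one used for the peaks. At least 1 CpG, on which both strands read alike, was found in 96% of all promoters.

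The highest ratios belonged to PAX7 with 1.07 (96.2% of promoters lower), the first listed start of PAX9 with 0.99 (91%), PAX5 with 0.95 (86.3%) and the seventh listed start of PAX6 with 0.91 (81.4%). PAX7 had no wild-type peak within 10 kb, and no peak covered the fixed start site of PAX9 or PAX5. PAX3, whose start site was covered, had a ratio of 0.67 (55.9%). The gene with the highest ratio was thus 1 of the 3 without a peak within 10 kb. The others of these 3, PAX4 and PAX8, had the lowest ratios at the first listed start, 0.08 and 0.48. The ratio therefore did not order the genes with and without a peak in either direction. By number of CpG, however, PAX7 and PAX3 were equal, with 21 each and 60.5% of promoters lower. How all promoters relate to the peaks was not tested, since the table and the peaks are on different builds.

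PAX2 and PAX8 were alike in this measure. The listed PAX2 starts had ratios of 0.56 and 0.58, with 49.1% and 50% of promoters lower, and PAX8 had 0.48, with 45.2% lower. All 3 ratios fell between the CpG-poor and the CpG-rich promoters of the table, whose fullest bins of the histogram begin at 0.15 and 0.85. The lowest values were those of PAX4, with 0.08 at its first listed start (7.02% lower) and 0 at the second, which holds no CpG. PAX4 had no wild-type peak within 25 kb, and neither had PAX8. Within 50 kb PAX4 had 3 peaks and PAX8 had 1.

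**Figure D4:**
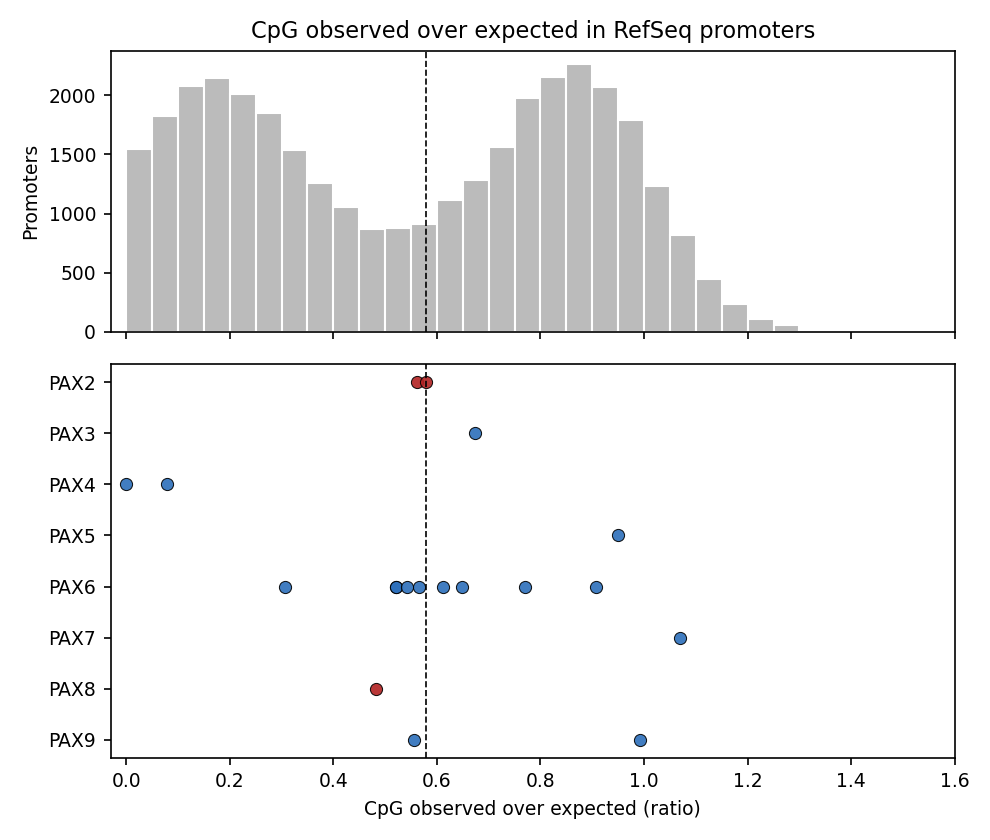
Ratio of observed to expected CpG in RefSeq promoters of 300 bases, as a histogram of all 35116 promoters (top, bins of 0.05) and as 1 point per listed start of each matched PAX gene (bottom). The dashed line is the median of the table, 0.58, and PAX2 and PAX8 (red) lie close to it, PAX7 at 1.07 and PAX4 at or near 0.

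The DNA-binding mutant had no peak within 10 kb of any PAX start site, and none within 500 kb. Across the genome 0.0246% of the 20 kb windows held a mutant peak, so a count of 0 among 9 places is no result about these genes. The nearest mutant peak was 2.04 Mb from PAX7. For PAX2, PAX3, PAX5, PAX6, PAX8 and PAX9 it was between 22.2 and 131 Mb away, and the chromosomes of PAX1 and PAX4 had no mutant peak. The lines carried separate constructs and the amount of tagged protein is not in the lists, so loss of DNA binding and less precipitated protein cannot be told apart.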

How the data were processed

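The deposited files are 2 peak lists, 1 for wild-type Myc-Idax and 1 for the DNA-binding mutant, each over empty-vector cells per the series' design text. Per the submitters' processing notes, Bowtie 0.12.7, MACS 1.4.1 and hg19 were used. The score in each list is the value the authors deposited, and the lists do not state its scale. No source used here says how the replicates were combined, and the empty-vector reads were not analysed here.

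Starts were converted from 0-based to 1-based. Peaks were assigned by any base within 10 kb of the 9 start sites, and distances along the gene used RefSeq strands (GRCh38.p14 promoter table). Fixed windows of 20 kb to 1 Mb ran from base 1 to the last wild-type peak of each chromosome. Peaks within 10% of a peak's width counted as of like width. The counting was tested on 100 simulated lists of 50 start sites with planted peaks, and all 5000 counts were recovered. The members and lists were chosen with earlier results of these data known. Named were all 9 genes, every peak within 10 kb and the nearest peak beyond on either side, with promoters of PAX2, PAX8 and the genes with the most and fewest peaks. At PAX2 and PAX3 the upstream peak after the nearest was named as well, outside this plan. The windows of over 20 kb, the peaks of like width and the counts at 50 to 500 kb were added after the peaks had been seen. Alternatives were windows of 5 and 25 kb, peak midpoints, score minimums of 100 and 200, merged peaks, shifted windows and a shorter promoter. Python 3.11.15, numpy 2.4.6, pandas 2.3.3 and matplotlib 3.10.9 were used.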

Additional observations from a re-analysis of the deposited data

How the results depend on the processing

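No paired analysis was possible because the 2 lists carry no replicate numbers, and with 1 list per line there was no replicate to omit. Of 37 values under alternatives, 23 stayed within 1.5 times the main value and 14 did not. With peaks of score 100 or more, and equally with 200 or more, there were 4 wild-type peaks at 3 PAX genes. At score 100 or more 13319 peaks of the list and 12470 genome windows with a peak were left. Under both minimums the difference between PAX2 and PAX8 and the other genes was 0.5 peaks per gene and -116.16 in highest score, each with the sign turned, and 1618.5 bp in covered length. At score 100 or more, 1 start site (PAX2) lay inside a peak instead of 3. Within 25 kb there were 11 peaks, and the differences were 0 peaks per gene and 2010 bp. These values changed because weak peaks left the list or more sequence was searched. Windows of 5 kb, peak midpoints, merging within 1 kb, a margin of 1 kb around the peaks, windows offset by 10 kb and the 250 bases before the start kept every summary value they were applied to within 1.5 times. Single genes did change within 5 kb, where PAX5 had no peak and PAX6 had 2508 bp covered instead of 5696 bp. The mutant count was 0 under each setting tried. Depth is unknown, so whether deeper reads would add weak peaks at PAX4, PAX7 or PAX8 was not tested.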

Other observations

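Several PAX genes have more than 1 listed start, and the spacing of these starts can be set beside the distances of the peaks. Each was measured within its own build, and which listed start is the fixed hg19 start site was not checked. The second listed PAX9 start is 4292 bp downstream of the first on GRCh38.p14, and the hg19 peak lay 3894 to 4722 bp downstream of the fixed start site. The next 2 listed PAX6 starts are 5241 and 8002 bp downstream of the first, and the wider PAX6 peak lay 4431 to 8188 bp downstream. The other 6 listed PAX6 starts after the first are 10339 to 17300 bp downstream, where no wild-type peak lay. The nearer PAX6 peak, 394 to 2331 bp downstream, is at the distance of no listed start, and PAX5, with its peak 6228 to 7184 bp downstream, has 1 listed start. The promoters of these 2 PAX6 starts hold 18 and 22 CpG, and that of the second PAX9 start holds 12. The listed PAX2 starts are 10186 bp apart. Whether any of the peaks sits on an alternative start was not tested.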
